A study of Mus musculus with 3 samples.

Results

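This section describes 10 genes for molecules on the endothelial surface that hold or guide leukocytes: the selectins Selp and Sele, the immunoglobulin-family molecules Icam1, Icam2, Vcam1, Pecam1, Mcam, Alcam and Cd47, and the sialomucin Cd34. They were taken as a list of names, drawn up with earlier results of these data known, and all 10 were found among the 18287 genes listed for endothelial cells of the mouse aorta that were bought for culture. The control library came from cells given neither agent. The glucose oxidase library came from cells exposed to that enzyme, which yields hydrogen peroxide as it oxidizes glucose (5 mU/mL, 30 min), and the last from cells given glucose oxidase at the same dose and time together with ethyl-2-hydroxybenzylamine (Et2HOBA, 0.2 mM, 24 h), known as a scavenger of isolevuglandins, which are reactive products of lipid oxidation. The labels give neither the order of the exposures nor the time from the oxidant to harvest, and no library given Et2HOBA alone was analysed here.

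Leukocytes leave the blood in steps. Selectins on activated endothelium catch passing cells and let them roll, ICAM and VCAM molecules then hold them through leukocyte integrins, and molecules at the cell borders such as PECAM-1 guide them through the wall. P-selectin is stored ready-made in Weibel-Palade bodies of endothelial cells, which does not mean that its gene is not also induced. E-selectin, VCAM-1 and most ICAM-1 are made after stimulation by cytokines, largely through NF-kappaB together with other factors such as AP-1.

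There was 1 library per group, so the differences are without any replicate check and the conditions could not be tested. The intervals given are exact 95% binomial (Clopper-Pearson) intervals for ratios and exact Poisson intervals for levels. Such intervals hold counting error alone, and so describe libraries rather than conditions. Depth was 35005089 to 40212212 reads per library. For glucose oxidase the reads were worked back from log2 differences in the authors' tables. In that library 39.9% of 2110 processed pseudogenes were lower than control by 1 log2 unit or more, against 2.46% in the library given both agents, so it stood apart from the others in this respect. No 50-base stretch of Selp, Sele, Icam2 or Mcam transcripts occurs, in the same direction, in transcripts of another annotated gene. Among the others the share of such stretches was at most 2.27%, in Icam1. Opposite-strand sequence was not searched, and listed genes on the opposite strand overlap Selp, Cd34 (Gm16897) and Mcam (Gm10687).

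The promoters of 7 of the 10 genes were found in the RefSeq table (build GRCm38.p6, 250 bases before to 50 bases from the annotated start). Those of the genes higher by 1 log2 unit or more in both treated libraries are shown with that of Mcam, the gene whose level differed least from control. Capitals mark matches, on either strand, to the motifs searched: AP-1 (TGANTCA), the cyclic AMP response element (TGACGTCA), the TATA box (TATAAA), the NRF2 core (TGACNNNGC), the C/EBP-ATF element (TGATGNAA) and the kappaB consensus. None of these matches overlap in the sequences printed. Each is written 5' to 3' in the direction of its gene.
Selp, chr1:164115014-164115313, plus strand: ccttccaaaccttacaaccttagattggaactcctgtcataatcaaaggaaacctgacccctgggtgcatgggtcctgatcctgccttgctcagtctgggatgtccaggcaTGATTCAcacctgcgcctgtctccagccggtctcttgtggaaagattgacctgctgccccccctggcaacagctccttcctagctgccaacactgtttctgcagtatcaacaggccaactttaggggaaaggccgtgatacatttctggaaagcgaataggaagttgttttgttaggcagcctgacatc
Sele, chr1:164047984-164048283, plus strand: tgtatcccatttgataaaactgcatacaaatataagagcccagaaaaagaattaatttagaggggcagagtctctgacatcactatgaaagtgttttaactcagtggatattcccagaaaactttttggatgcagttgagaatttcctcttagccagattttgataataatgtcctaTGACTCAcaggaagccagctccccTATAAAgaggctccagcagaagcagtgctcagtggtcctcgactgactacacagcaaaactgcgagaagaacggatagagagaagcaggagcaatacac
Alcam, chr16:52453032-52453331, minus strand: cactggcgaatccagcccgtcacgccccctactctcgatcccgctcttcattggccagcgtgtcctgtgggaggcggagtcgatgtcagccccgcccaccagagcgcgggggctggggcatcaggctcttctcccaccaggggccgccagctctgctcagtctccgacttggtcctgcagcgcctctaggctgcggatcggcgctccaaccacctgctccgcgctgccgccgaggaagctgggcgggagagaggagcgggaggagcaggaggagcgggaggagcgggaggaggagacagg
Mcam, chr9:44134408-44134707, plus strand: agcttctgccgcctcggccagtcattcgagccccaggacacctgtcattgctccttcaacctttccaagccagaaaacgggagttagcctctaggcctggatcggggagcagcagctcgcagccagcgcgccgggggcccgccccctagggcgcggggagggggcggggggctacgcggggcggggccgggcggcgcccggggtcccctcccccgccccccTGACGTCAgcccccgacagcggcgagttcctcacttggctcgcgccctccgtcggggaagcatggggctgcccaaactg

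Both selectin promoters held an AP-1 match, TGATTCA at bases -139 to -133 in Selp and TGACTCA at bases -73 to -67 in Sele, with the start counted as 0. Of the 32851 promoter entries in the table, 7.81% held an AP-1 match. Sele also held TATAAA at bases -49 to -44, found in 13.6% of entries. Icam1 held TATAAA at bases 13 to 18 from the RefSeq start of its window, and Cd34 the NRF2 core at bases -91 to -83 (12.4% of entries). The Icam1 gene start given below, 21015985, lies downstream of that RefSeq start, and the TATAAA match comes before it. Mcam held TGACGTCA at bases -29 to -22 (1.79% of entries), and the Alcam window, 69.7% G and C, held none of the motifs. Neither selectin window, nor that of Icam1, Cd34, Mcam, Cd47 or Alcam, held a match to the kappaB consensus as searched. Among all entries 8.46% held it. The letters of that consensus are not listed above, and looser forms of it were not searched. The Icam1 window holds tggaaattcc, and the Sele window ggatattccc and gagaatttcc, none of which counted as a match. The search therefore cannot tell whether these windows lack kappaB sites. All motif matches are letters in a window, and say nothing of binding.

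The genes differed widely in level. Per kilobase of exon, which allows genes to be compared, the control library had 5826 normalized reads for Icam2 (95% interval 5720 to 5934) and 5811 for Pecam1 (5753 to 5871). These were the highest of the 10 and their intervals overlapped. Cd34 followed at 2841, Mcam at 2142, Cd47 at 1594 and Selp at 1117. The levels per kilobase of Sele (284), Vcam1 (236) and Alcam (45.7) were lower, and that of Icam1 was 3.33 (1.87 to 5.50), which only 8.48% of the listed genes fell below.

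After glucose oxidase the order changed. Pecam1 (4477 normalized reads per kilobase, 4424 to 4531) and Selp (4403, 4340 to 4467) had overlapping intervals at the top, followed by Cd34 (3420), Icam2 (2394), Mcam (2183) and Cd47 (1564). With both agents Selp was highest at 5334 (5268 to 5402), above Pecam1 at 4570 (4518 to 4623), and Icam2 at 1339 (1289 to 1391) lay below Cd47 at 1523 (1493 to 1553).

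The summed level of the 10 genes was nearly the same in the 3 libraries, at 19902, 19520 and 19670 normalized reads per kilobase in control, glucose oxidase and both agents. What differed was the make-up of that sum. Icam2 supplied 29.3% of it in control, 12.3% after glucose oxidase and 6.81% with both agents, while Selp supplied 5.61%, 22.6% and 27.1%. Pecam1 supplied between 22.9% and 29.2% in each library.

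**Figure D1:**
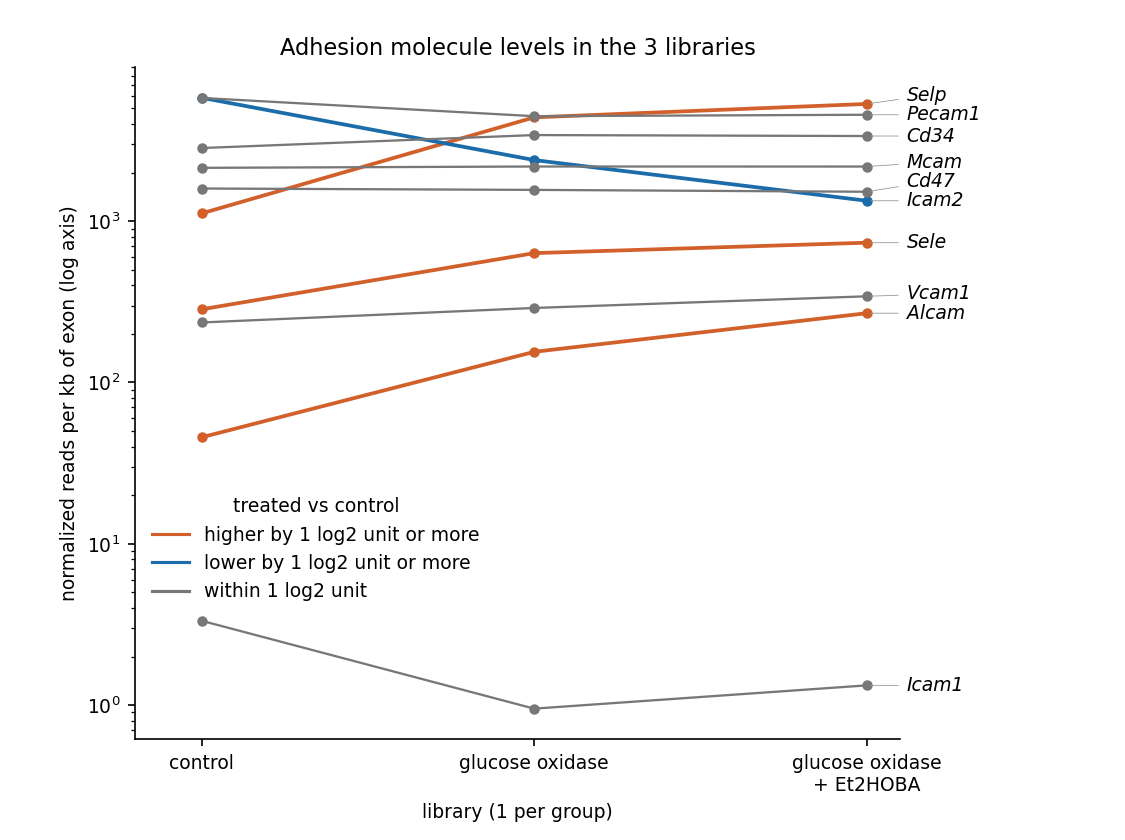
Level of each of the 10 genes in each library, in normalized reads per kilobase of exon on a log axis, 1 library per group, with lines joining the values of a gene. Selp goes from 1117 in control to 5334 with both agents and crosses Icam2, which goes from 5826 to 1339, while Icam1 stays under 4.

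A difference is called past the limit below when the log2 ratio of normalized count plus 10 was 1 or more in either direction. In the comparison of glucose oxidase with control, 4 of the 10 genes were past it, 3 higher (Selp, Alcam and Sele) and 1 lower (Icam2). With 1 library each, a difference due to the oxidant cannot be told apart from any other difference between these libraries. Over all listed genes 12.7% were past the limit, 4.07% higher and 8.6% lower, and over protein-coding genes 4.53% were higher and 4.76% lower. Among abundant protein-coding genes, those with a mean normalized count of 1000 or more, which 9 of the 10 reached, 4.90% of 6700 were past it. The median log2 ratio of the 10 was 0.15, against -0.01 over all genes.

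Against control, the library given both agents had the same 4 genes past the limit, 3 higher and 1 lower, where over all genes 14.7% were (6.66% higher, 8.04% lower) and among abundant protein-coding genes 11.1%. The median log2 ratio of the 10 was 0.14, against 0.00 over all genes. Both comparisons use the same control library, so their agreement is not independent.

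The treated libraries were then set side by side, with Et2HOBA and without. With 1 library each, a difference due to Et2HOBA cannot be told apart from any other difference between these libraries. None of the 10 was past the limit, against 8.55% of all listed genes (6.39% higher, 2.15% lower with Et2HOBA) and 1.07% of abundant protein-coding genes. Processed pseudogenes made up 959 of the higher genes, and among protein-coding genes, the class of all 10, the split was the other way, with 0.971% higher and 2.35% lower. The median log2 ratio of the 10 was 0.09, against 0.00 over all genes. Selp, Sele, Alcam and Icam2, the 4 past the limit against control, each lay farther from control with Et2HOBA than without. Of all 10 genes 6 lay farther and 4 nearer, and the share over all listed genes was not counted. Over all listed genes the median absolute log2 ratio to control was 0.316 after glucose oxidase and 0.395 with both agents. Among protein-coding genes 9.30% and 16.6% were past the limit in these comparisons. A greater distance from control with Et2HOBA was thus not particular to the adhesion genes.

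**Figure D2:**
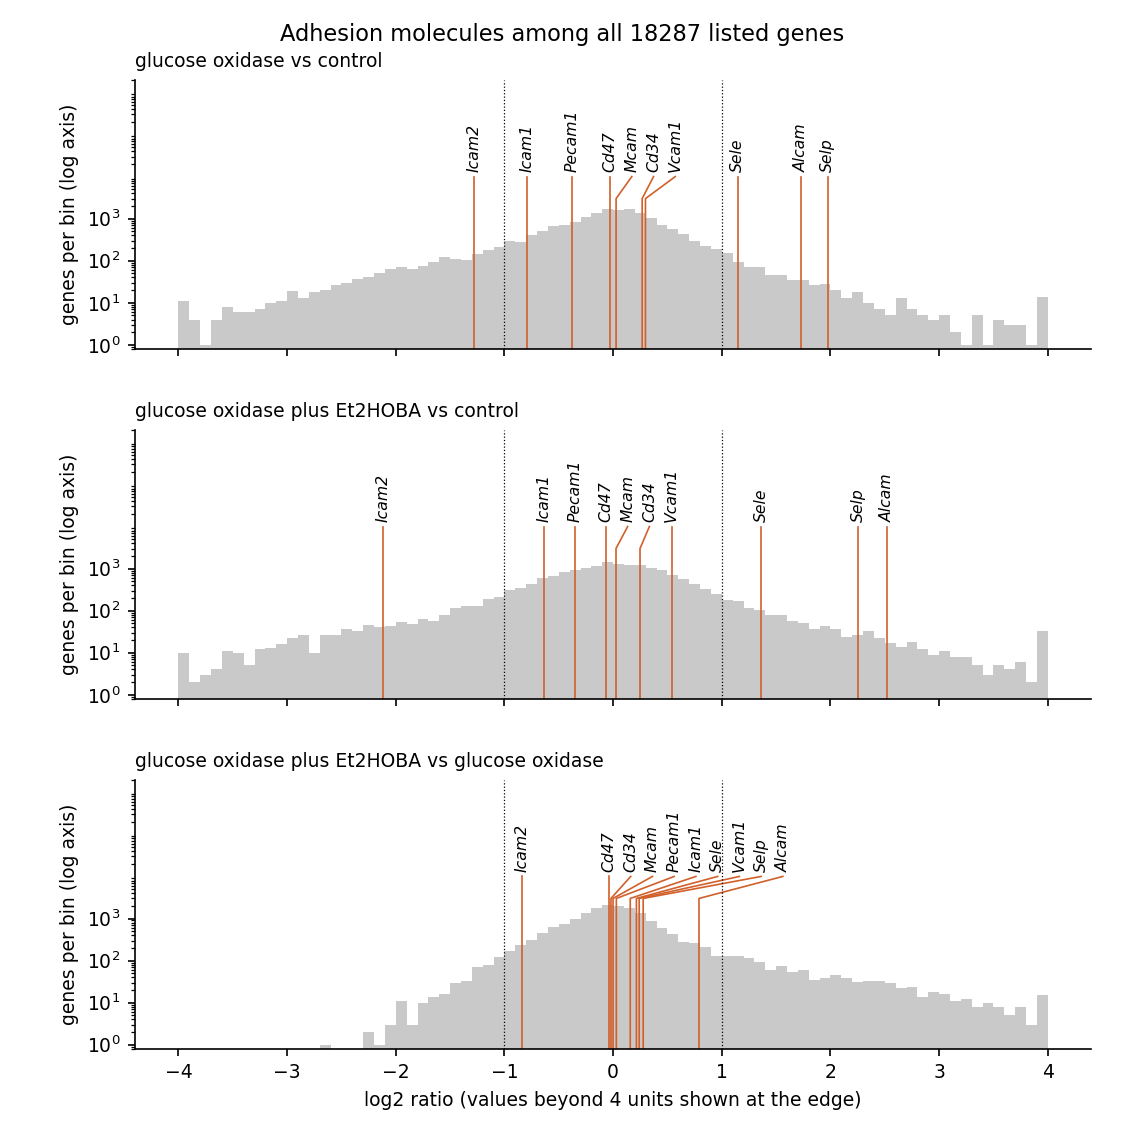
Distribution of log2 ratios of all 18287 listed genes in the 3 comparisons (grey, number of genes per bin on a log axis), with the 10 adhesion genes as lines and the limit of 1 log2 unit dotted. Selp, Alcam and Sele lie past the upper limit and Icam2 past the lower one in both comparisons against control, and none of the 10 does so between the treated libraries.

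The selectins catch leukocytes. Selp (P-selectin, ENSMUSG00000026580.16, chromosome 1, 164115264 to 164150026 on mm10, as are the gene positions that follow) was counted 5088 times in control, 18758 times with glucose oxidase and 24449 times with both agents. Both treated libraries were thus well above control, and the level with both agents was 1.21-fold that with glucose oxidase (95% interval 1.19 to 1.23). Its log2 ratio of 1.98 after glucose oxidase ranked 149th from the top of all listed genes, and its ratio of 2.25 with both agents ranked 225th. Sele (E-selectin, ENSMUSG00000026582.6, chromosome 1, 164048234 to 164057677) had 854, 1782 and 2226 reads in the same order. It was 2.23-fold higher than control after glucose oxidase (2.05 to 2.42) and 2.59-fold with both agents (2.39 to 2.81), a smaller ratio than that of Selp in each comparison. Between the treated libraries Sele differed by 1.16-fold (1.09 to 1.24).

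Sele and Selp lie in the same direction on chromosome 1, 57.6 kb apart. Of the neighbours within 100 kb of Selp with coding genes, F5 (coagulation factor V) had 3, 16 and 10 reads and Slc19a2, a thiamine transporter, had 1267, 1723 and 2217, a log2 ratio of 0.54 and 0.79 against control. BC055324, on the other side of Sele, was lower, with 259, 123 and 113 reads. Genes of the region thus differed from control in both directions.

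A pair of non-coding genes, Gm16587 and Gm16548, overlap Selp on the opposite strand. Gm16587 went from 7 control reads to 317 with glucose oxidase and 387 with both agents, a ratio of 48.4 (23.2 to 121) and 54.9 (26.4 to 138). Gm16548 had 5, 27 and 24 reads. The libraries were stranded per the labels' protocols, but whether the counting used strand is not given in the sources used here, so reads from Selp and from its antisense partners cannot be told apart with certainty. The reads of both partners together are few beside those of Selp. Both were named after their values were seen.

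The ICAM molecules are ligands of leukocyte beta-2 integrins. Icam2, which resting endothelium carries (ENSMUSG00000001029.15, chromosome 11, 106377656 to 106388075), gave 11448 reads in the control library, 4400 with glucose oxidase alone and 2648 with both agents. Control was highest, and the 3 libraries were stepwise lower. The ratio to control was 0.411 (0.397 to 0.425) after glucose oxidase and 0.230 (0.220 to 0.240) with both agents, the latter 344th from the bottom of all genes. Between the treated libraries the ratio was 0.559 (0.533 to 0.587), a log2 ratio of -0.84, at percentile 3.87 of all genes.

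Icam1, the member that inflammatory cytokines induce (ENSMUSG00000037405.8, chromosome 9, 21015985 to 21028817), was at 15, 4 and 6 reads in control, glucose oxidase and both agents. It was at the edge of detection in each library. The ratio to control was 0.285 after glucose oxidase, with an interval of 0.0689 to 0.895, and 0.397 with both agents, with an interval of 0.126 to 1.08 that includes equal levels. Icam5, next to Icam1 on chromosome 9, was also scarce, with 25, 27 and 12 reads.

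**Figure D3:**
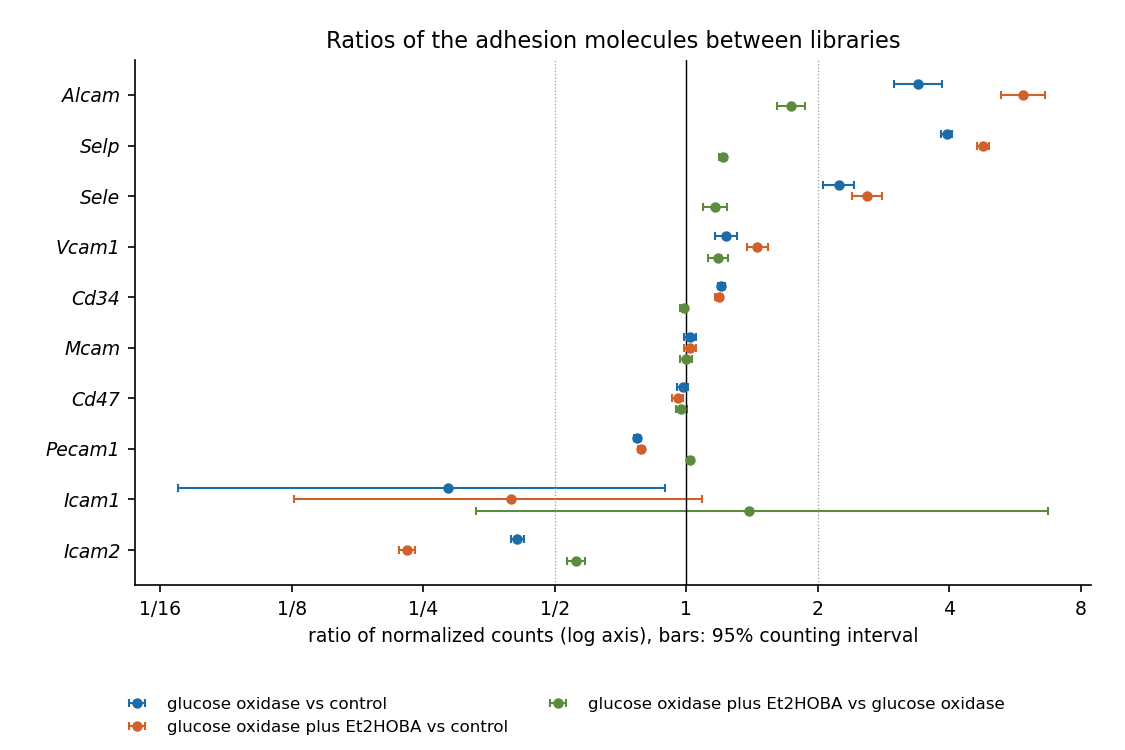
Ratio of normalized counts for each of the 10 genes in the 3 comparisons, on a log axis, with bars for the 95% counting interval, which carries no replicate error. Alcam, Selp and Sele lie above a ratio of 2 against control and Icam2 below 1/2, and the bars of Icam1 are the widest because it had between 4 and 15 reads.

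VCAM-1 binds the integrin alpha-4 beta-1 of monocytes and lymphocytes. Vcam1 (ENSMUSG00000027962.14, chromosome 3, 116109949 to 116129688) gave 2156, 2481 and 3154 reads in the same order of libraries, an upward order with small steps. Its ratio to control was 1.23 (1.16 to 1.30) after glucose oxidase and 1.45 (1.38 to 1.54) with both agents. Neither was past the limit, and the ratios stood at percentiles 76.6 and 82.5 of all genes.

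PECAM-1 holds endothelial cells to each other and to migrating leukocytes. Pecam1 (ENSMUSG00000020717.19, chromosome 11, 106654217 to 106750628) had 37351, 26919 and 29562 reads in the same order. Both treated libraries were lower than control and close to each other, at 0.770 (0.758 to 0.783) and 0.786 (0.774 to 0.799) of its level. Pecam1 and Icam2 lie 266 kb apart on chromosome 11, yet with both agents their ratios to control were 0.786 and 0.230. Within 100 kb of Pecam1 none of 5 coding genes with a mean normalized count of 10 or more was past the limit in any comparison, and near Icam2 1 of 2 was, Prr29, with 117, 46 and 33 reads.

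**Figure D4:**
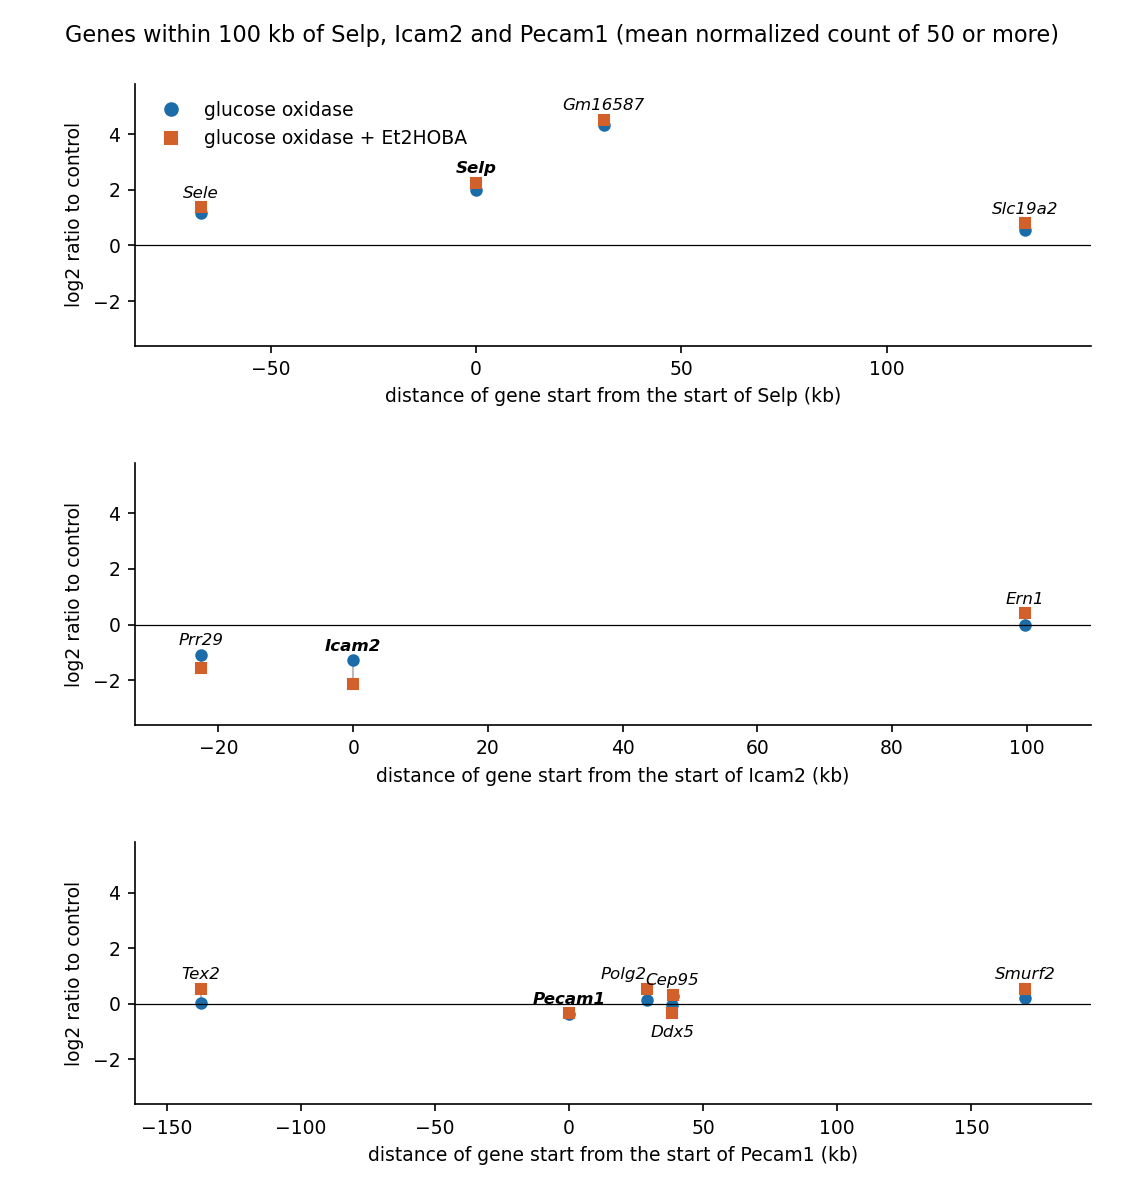
Log2 ratios to control of listed genes within 100 kb of Selp, Icam2 and Pecam1 that had a mean normalized count of 50 or more, placed by the distance of each gene start in kb, with circles for glucose oxidase and squares for both agents. Around Selp every gene plotted lies above 0 and the antisense gene Gm16587 is highest, at 4.33 and 4.51, whereas around Icam2 only Prr29 lies with it below -1.

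ALCAM (CD166) is a homophilic adhesion molecule and the ligand of CD6 on T cells. Alcam (ENSMUSG00000022636.13, chromosome 16, 52248996 to 52454074) gave 336, 1065 and 1989 reads across control, glucose oxidase and both agents. The libraries stood in steps, as for Icam2 but upward. The ratio to control was 3.39 (2.99 to 3.84) after glucose oxidase and 5.88 (5.24 to 6.62) with both agents, the largest of the 10 in that comparison and 153rd from the top of all genes. Between the treated libraries it was 1.74-fold higher with Et2HOBA (1.61 to 1.87), at percentile 91.6 of all genes and 98.2 of protein-coding genes. Cblb, a ubiquitin ligase gene and the single listed neighbour within 100 kb of Alcam, had 753, 1446 and 2458 reads, 2.05-fold (1.88 to 2.24) and 3.24-fold (2.99 to 3.52) the control level. It was named after its values were seen.

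The other members differed little. Cd34 (ENSMUSG00000016494.9, chromosome 1, 194938819 to 194961279), a sialomucin that can carry selectin ligands, had 21374, 24067 and 25540 reads, with ratios to control of 1.20 (1.18 to 1.23) and 1.19 (1.17 to 1.21). Mcam (CD146, ENSMUSG00000032135.15, chromosome 9, 44134469 to 44142727), a junctional adhesion molecule of endothelium, had 7406, 7060 and 7592 reads, and its ratios of 1.02 (0.986 to 1.05) and 1.02 (0.986 to 1.05) had intervals that include equal levels. Cd47 (ENSMUSG00000055447.19, chromosome 16, 49800533 to 49915010), which signals to SIRP-alpha on leukocytes, had 10327, 9473 and 9926 reads, with ratios of 0.981 (0.954 to 1.01) and 0.955 (0.929 to 0.982). For these 3 genes the treated libraries also lay within counting error of each other under the main scaling. The ratios were 0.986 for Cd34 and 0.974 for Cd47, with intervals that include 1, and the interval for Mcam was 0.968 to 1.03. Under total-count scaling their log2 ratios between the treated libraries lay outside these intervals, at -0.114 for Cd34, -0.0951 for Mcam and -0.133 for Cd47. Total-count scaling turned the log2 ratio of Mcam to -0.03 after glucose oxidase and -0.12 with both agents, so its direction is not settled.

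In the authors' deposited tables, whose scale shrinks low counts, the log2 differences against control had the same signs as above for all 10 genes. The authors' deposited table for glucose oxidase gave 1.94 for Selp, 1.36 for Alcam, 1.01 for Sele and -1.24 for Icam2. The authors' deposited table for both agents gave 2.24, 2.34, 1.30 and -2.10 for these genes, with Alcam again above Selp. None of the 10 is among the 7 genes in the authors' deposited table that sets the treated libraries against each other.

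By a rule of nearest values, the abundant protein-coding genes whose pair of log2 ratios against control lay closest to that of Selp, of 6699 candidates, were Slc3a2, Cyb5r1 and Gclm. Slc3a2 encodes the heavy chain shared by several amino acid exchangers, and it had 7093, 25278 and 34241 reads (distance 0.05 log2 units). Gclm encodes the regulatory subunit of glutamate-cysteine ligase in glutathione synthesis and had 2727, 9842 and 13701 reads. Nearest to Icam2 were Lgals3bp, with 6879, 2643 and 1565 reads, Stox2 and Mal. With 3 libraries such a likeness rests on 2 ratios per gene.

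The partners of these molecules were described through 7 lists, read against the shares of all genes past the limit given above. Among leukocyte counter-receptors 11 of 14 were listed, and 2 were higher and 1 lower past the limit in each comparison against control. Cd44, a hyaluronan receptor that also carries selectin ligands, gave 999, 2030 and 5019 reads, here and below in the order control, glucose oxidase, both agents. Itgb7 had 46, 109 and 137 reads. Itgal, the alpha chain of the leukocyte integrin LFA-1 that binds ICAM molecules, had 292, 39 and 8 reads, with a ratio to control of 0.0272 (0.0116 to 0.0544) with both agents. Selplg, the main P-selectin ligand of leukocytes, was not among the listed genes.

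Among sialomucins and enzymes that build selectin ligands, 13 of 16 were listed. None was higher and 2 were lower past the limit after glucose oxidase, and 3 were lower with both agents. Fut4, a fucosyltransferase, had 154, 53 and 19 reads, Madcam1, an addressin, had 64, 24 and 9, and the tyrosine sulfotransferase Tpst1 had 1041, 592 and 517. The list's medians were -0.31 and -0.30 against control. Emcn and Podxl, endothelial sialomucins, were not past the limit, with 5373, 6333 and 7936 reads and 37081, 32746 and 45284 reads.

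Of the molecules that act in transmigration, in the library given both agents 1 of 13 listed was higher and 4 were lower past the limit, against 1 higher and 0 lower after glucose oxidase. The gene that was higher was Pvr (CD155), a nectin-like molecule at cell borders, with 1008, 2641 and 6645 reads. It was also past the limit between the treated libraries, at a log2 ratio of 1.22. So were genes of the other lists, namely Cd44 (1.20), Itgal (-1.51), Fut4 (-1.20) and Rab3d (-1.16). The lower genes of the transmigration list were Jam2 with 22505, 13393 and 10922 reads, the caveolar gene Cav1 with 15131, 9192 and 7331, and Plvap with 6432, 3372 and 3126. Jam3, named after its values were seen, was the remaining lower gene, with 903, 583 and 441. The log2 ratios of these lower genes with both agents lay between -1.03 and -1.05, just past the limit, and with glucose oxidase between -0.53 and -0.83. The junction cadherin Cdh5 had 55360, 45034 and 63665 reads.

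P-selectin shares its store with von Willebrand factor. All 12 genes of the storage list were listed; 0 were higher and 1 lower past the limit after glucose oxidase, and 2 were higher and 4 lower with both agents. Vwf had 46607, 21567 and 12545 reads, a log2 ratio of -1.02 and -1.90, so it differed from control in the direction opposite to Selp. The granule GTPases Rab27a (771, 427 and 246 reads) and Rab3d (622, 513 and 241) were lower with both agents, at -1.62 and -1.34. Edn1 was the remaining lower gene, with 57, 37 and 19 reads. Stxbp5, a syntaxin-binding protein, was higher with 2102, 3416 and 4286 reads, just past the limit with both agents at 1.02. The scarce Angpt2 was also higher, with 9, 17 and 38 reads. Edn1 and Angpt2 were named after their values were seen. Cd63, the membrane protein that accompanies P-selectin in these stores, had 28637, 32581 and 38365 reads.

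Adhesion molecules are cut from the surface by proteases and tied to actin by linkers. All 14 genes of that list were listed, with 1 higher past the limit after glucose oxidase, 2 with both agents and 0 lower in either. Adam8, a membrane protease, had 244, 917 and 1496 reads, 4.02-fold and 6.09-fold the control level. Ezr, which links ICAM and VCAM tails to actin, had 4967, 6954 and 13319 reads and was past the limit with both agents only, at 1.41. The protease Adam17, the main sheddase of selectins and VCAM-1, had 4687, 3789 and 4231 reads. Of 7 partners of CD47, 1 was lower past the limit after glucose oxidase and 0 with both agents. It was Thbs1, with 677, 298 and 541 reads.

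None of the 14 listed regulators of adhesion gene transcription was past the limit after glucose oxidase. With both agents 3 were lower, namely the ETS factors Fli1, with 8374, 4260 and 2621 reads, and Erg, with 5936, 3887 and 2697, and the interferon-responsive factor Irf1, with 1145, 845 and 452. The NF-kappaB genes Nfkb1 (4763, 3376 and 3160 reads) and Rela (3780, 3676 and 4634) and the AP-1 gene Jun (2791, 2879 and 4081) were not past the limit. Others within the limit differed more from control with both agents. Egr1 and Nfkbia were lower, at log2 ratios of -0.99 and -0.72, and Tnfaip3, Klf2 and Klf4 higher, at 0.90, 0.89 and 0.87.

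**Figure D5:**
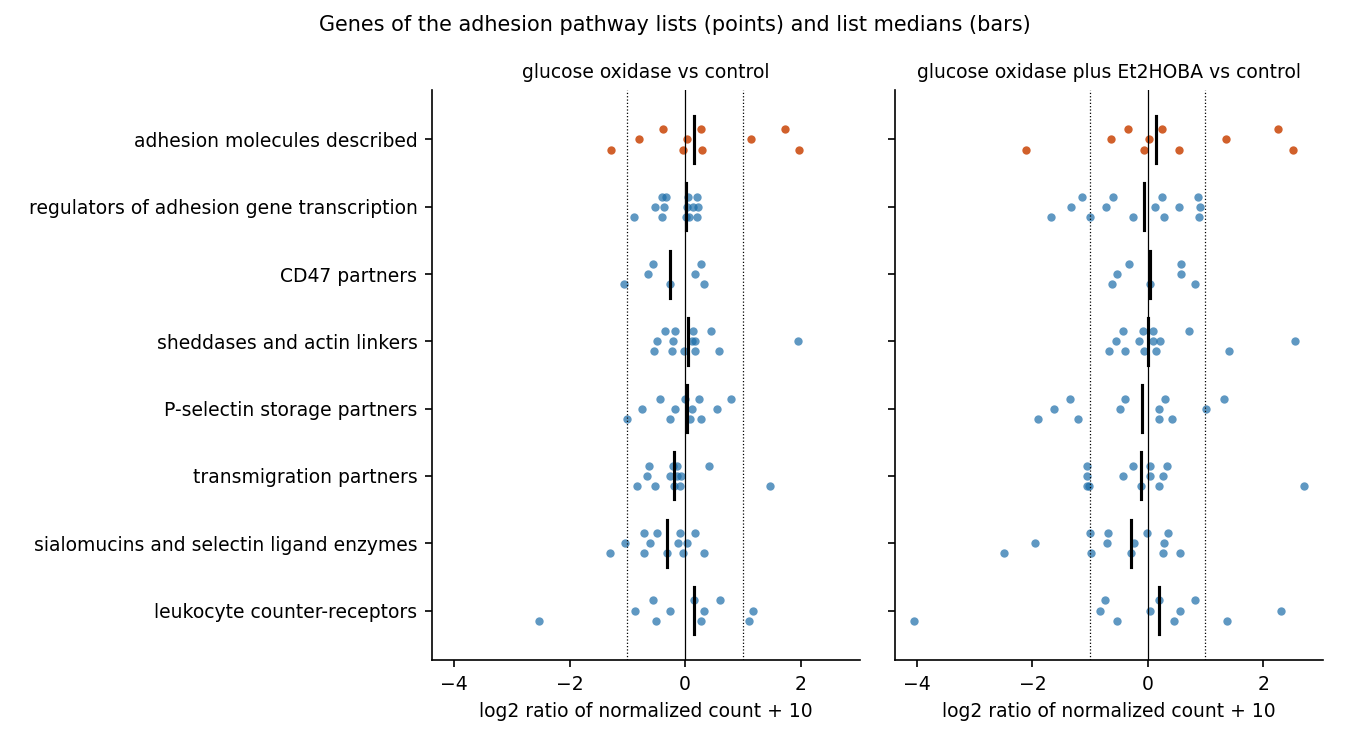
Log2 ratios to control of the listed genes in each pathway list (blue points) and of the 10 adhesion genes (orange points), with bars at list medians and dotted lines at 1 log2 unit, for glucose oxidase (left) and both agents (right). List medians run from -0.31 to 0.20 while single genes such as Itgal, Pvr and Adam8 lie far from them.

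Markers were read for the labelled cell type and for cells that could carry the same molecules. All 12 endothelial markers were listed and none was at or under 3 reads. Their summed normalized count was 345471 in control, 220544 after glucose oxidase and 197138 with both agents, so it was lower where Selp, Sele and Alcam were higher, and in the same direction as Icam2. The markers did not all go that way. Kdr was at 0.478 and 0.391 of its control level with glucose oxidase and with both agents, and Cldn5 at 0.532 and 0.302, whereas Cdh5 was at 0.870 and 1.14, Robo4 at 1.04 and 0.889 and Emcn at 1.26 and 1.47. In such bulk libraries fewer cells of a type and less RNA per cell cannot be told apart. Platelets also hold P-selectin: 5 of 8 platelet markers were listed, summing to 891, 664 and 615 normalized counts, and Pf4 had 290, 167 and 211 reads. Gp9 (180, 34 and 34 reads) and Gp1ba (121, 54 and 30) were lower than control too. Itga2b was higher, at 1.19 and 1.18 of its control level, and Treml1 had 55, 82 and 39 reads.

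Of 10 leukocyte markers 5 were listed and Ptprc was not among them. Their summed reads were 8419, 17173 and 27905, of which Cd68, a lysosomal protein gene, made up 8215, 17067 and 27799, while Fcer1g and Csf1r had between 6 and 12 reads in each library and the lysozyme gene Lyz2 had 186, 76 and 86. Of 7 fibroblast markers 3 were listed, with summed reads of 137, 1367 and 2844. Pdgfra made up 107, 1325 and 2821 of these and Col1a1 28, 30 and 23. The 6 of 8 smooth muscle and pericyte markers listed summed to 67, 129 and 195 reads, and the 1 of 4 epithelial markers, Krt8, had 1, 5 and 6 reads. The part of these markers in the differences above was not tested.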

How the data were processed

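Gene expression was measured in poly(A) RNA by stranded RNA sequencing, with 1 library in each of 3 groups, per the labels' protocols. STAR, featureCounts and mm10 are named in the submitters' processing notes, without versions. The authors deposited raw read counts for control and for both agents together, and log2 differences of log-normalized values against control; the normalization is not given in the sources used here. The deposited log2 values match asinh applied to square-rooted counts. Inverting this gave whole glucose oxidase counts (within 0.01) for 100% of 18258 genes matched by symbol, at most 0.000138 away, and 29 further genes were placed by whole reads. When control counts were raised by 1 read, the whole share was 3.30%. The inversion was tested on simulated data.

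Counts were scaled with size factors from the median of ratios (1.03, 0.965 and 1.04), and log2 ratios were taken after adding 10. Exon lengths and overlaps came from GENCODE M21, where 17878 gene IDs had the same version and position. Ratios carry Clopper-Pearson intervals and levels Poisson intervals (scipy 1.17.1); TMM factors came from edgeR 4.0.16. No count model was fitted, since 1 library per group gives no spread.

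The members and all lists were chosen with earlier results of these data known. Named list genes are those past 1 log2 unit against control in either comparison, at most 4 per list by mean count; for Selp and Icam2 the 3 nearest genes with a mean of 1000 or more were named. Genes described as not past the limit, and neighbours, were chosen after their values were seen. The alternatives were another pseudocount, 3 other scalings, a filter on low counts, other limits, protein-coding genes alone and the deposited scale.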

Additional observations from a re-analysis of the deposited data

How the results depend on the processing

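No paired analysis was possible because there was 1 library per group, and for the same reason no library could be left out. Selp, Alcam, Sele and Icam2 stayed past 1 log2 unit against control under each scaling, pseudocount and deposited-scale alternative tried, and Icam1, with 4 to 15 reads, was past it only with a pseudocount of 1 (-1.59 and -1.20). Of 30 ratios of the 10 genes, 25 kept their sign in all 5 alternatives; the other 5 were those of Mcam in each comparison and of Pecam1 and Cd34 between the treated libraries, all close to 0. At a limit of 2 log2 units 0 of the 10 genes passed after glucose oxidase, and at 0.5 units 2 passed between the treated libraries, Alcam higher and Icam2 lower. The numbers of all genes past the limit were 4243, 4494 and 3311 with a pseudocount of 1 (in the order glucose oxidase against control, both agents against control, treated against treated), 6175, 7332 and 4670 with the limit at 0.5 units, 526, 695 and 391 with 2 units, and 734, 1768 and 43 on the deposited scale. Over protein-coding genes they were 1235 and 441 in the first and last comparison, where 849 and 960 of the genes past the limit were processed pseudogenes. A wider or narrower limit moves these counts by construction; for the pseudocount and the deposited scale the cause was not tested. Total-count scaling put the median of all genes at -0.13 with both agents against control and changed the split there from 1217 higher and 1471 lower to 988 and 1837. Low counts limit Icam1 and the antisense genes of Selp.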
